A study of Rattus norvegicus with 6 samples.

Results

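The transcripts described here encode MAP kinase phosphatases and inhibitors that act back on the ERK pathway, in fetal rat lung type II epithelial cells that were stretched or left unstretched. The members were chosen by name, as every probe set of the array whose annotated symbol is Dusp1, Dusp4, Dusp5, Dusp6, Spry1, Spry2, Spry4, Spred1, Errfi1 or Phlda1. Of these 10 genes, 8 had a probe set, and they gave 11 of the 15923 probe sets on the array. Dusp6 had 3 probe sets, Dusp1 had 2 and each of the others had 1. No probe set carried the symbol Spry4 or Spred1, so these genes have no value here.

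The cells came from lungs of embryonic day 19 rats, of the CD strain and of mixed sex in the 5 samples whose labels give it, and were kept in serum-free DMEM on collagen-coated silastic membranes. The 3 strained samples were stretched for 16 h by a Flexercell unit, with 5% cyclic strain at 60 cycles/min for 15 min and 2.5% steady distension for 45 min of each hour. The 3 control samples spent the same 16 h on unstretched membranes, and no drug or genetic change was used in either group. Each control was paired with a strained sample of the same litter, giving 3 pairs from 3 litters on 6 Affymetrix rat E230A arrays.

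Growth factor receptors signal through RAS, RAF and MEK to the kinase ERK, which phosphorylates proteins in the cytoplasm and nucleus and switches on immediate early genes. Many transcripts switched on by ERK encode its own brakes. Dusp phosphatases remove the activating phosphates from MAP kinases, Sprouty and Spred proteins block the path from receptors to RAF, and Errfi1 (also called Mig6) binds and inhibits the EGF receptor. In the developing lung, Sprouty proteins are known as antagonists of the FGF signalling that drives airway branching.

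Markers of the labelled cell type ranged widely in signal. Mean signals over the 6 arrays were 11850 for Epcam, a gene of epithelia in general, and 4574 for the lung epithelial factor Nkx2-1. Sftpd was at 1763, Sftpc at 1552, Abca3 at 1004, Sftpb at 424 and Slc34a2 at 333. Sftpa1 (80.0 and 102 on its probe sets) and Napsa (109) were dim and not tested. Genes listed as markers of other cells also gave signal, among them Tagln (13360), Col1a1 (4119 and 2998) and Lyz2 (1066), whereas Pecam1 (25.9) and Ptprc (11.9 and 27.1) lay far under the filter on dim probe sets, which was set on the mean of log2(signal + 16) over the 6 arrays and corresponds to a signal of 115.6. Median signals of the arrays ran from 161.7 to 199.0.

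Dusp6 and Errfi1 had the largest differences between strained and control cells. Dusp1 and Dusp5 were the only members in which a searched motif was found, among the 9 with a promoter to search. Upstream sequence is shown for these 4 members. Each is the 250 bases before the gene's start in RefSeq on build GRCr8, all on the plus strand: chr7:35979354-35979603 for Dusp6, chr5:166606591-166606840 for Errfi1, chr10:17184603-17184852 for Dusp1 and chr1:262543524-262543773 for Dusp5. Capitals mark the motif matches.
Dusp6: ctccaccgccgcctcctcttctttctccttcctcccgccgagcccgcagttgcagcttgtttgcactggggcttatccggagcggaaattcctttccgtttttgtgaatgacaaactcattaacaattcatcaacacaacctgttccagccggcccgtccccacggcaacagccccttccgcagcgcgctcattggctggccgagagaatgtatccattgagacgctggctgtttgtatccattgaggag
Errfi1: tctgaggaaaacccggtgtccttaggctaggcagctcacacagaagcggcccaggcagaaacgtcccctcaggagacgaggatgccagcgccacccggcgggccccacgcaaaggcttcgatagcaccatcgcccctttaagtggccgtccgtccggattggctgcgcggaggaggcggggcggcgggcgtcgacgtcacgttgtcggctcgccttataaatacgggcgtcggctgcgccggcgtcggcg
Dusp1: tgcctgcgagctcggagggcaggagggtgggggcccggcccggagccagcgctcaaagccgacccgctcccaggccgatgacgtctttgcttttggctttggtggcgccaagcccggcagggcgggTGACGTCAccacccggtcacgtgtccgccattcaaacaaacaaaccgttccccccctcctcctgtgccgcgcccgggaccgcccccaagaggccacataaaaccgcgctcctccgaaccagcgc
Dusp5: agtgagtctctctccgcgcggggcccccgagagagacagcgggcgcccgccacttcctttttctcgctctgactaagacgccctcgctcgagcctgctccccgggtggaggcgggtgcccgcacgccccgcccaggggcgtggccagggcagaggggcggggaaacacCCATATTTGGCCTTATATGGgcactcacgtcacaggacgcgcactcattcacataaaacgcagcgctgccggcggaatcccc
The search covered 300 bases, from 250 before to 50 after the start, on both strands, with the ETS core CCGGAAG, AP-1 (TGACTCA and TGAGTCA, which are each other's reverse complement), the cyclic AMP response element TGACGTCA, the CArG box bound by serum response factor, and the C/EBP-ATF site (TGATGCAA and TTGCATCA, likewise reverse complements). Dusp1 held 1 cyclic AMP response element, which began 124 bases before the start, and 1.83% of the 33469 promoters in the table held at least 1. Dusp5 held 2 adjacent CArG boxes, beginning 82 and 72 bases before the start, and 1.64% of all promoters held one. No match to the other motifs was found in the 10 member promoters, which belong to 9 genes and include 2 of Spry2. Dusp4 had no promoter among those available, so it was not searched. Their shares among all promoters were 8.75% for the ETS core, 4.63% for AP-1 and 0.795% for the C/EBP-ATF site. These matches describe the letters in the window only.

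Strained cells were compared with control cells to ask which of these feedback transcripts differ after 16 h of stretch. Dusp6, the cytoplasmic phosphatase that prefers ERK, had the largest difference of the members: its 3 probe sets were higher in the strained sample of all 3 pairs, by 1.46- to 1.99-fold on average. Errfi1 was 1.53-fold higher on average, through pairs 1 and 2 only. Spry1 and Phlda1 had mean differences close to 0, and those of the other members lay between these ends. In limma, fitted with a term for the pair, no member among the 10 tested probe sets reached the adjusted threshold of 0.05 (lowest adjusted p = 0.0696), where 31 of all 9519 tested probe sets, 0.326%, did. At an unadjusted p of 0.05, 4 of the 10 were higher, 3 of them from the single gene Dusp6 and 1 from Errfi1, beside 4.55% of all probe sets, and 0 were lower, beside 4.9%. A mean difference of at least 1.5-fold upward was found for 3 of the 10, beside 0.819% of all. The mean difference was above 0 for 9 of the 10, beside 46.1% of all probe sets, and the members' median log2 difference was 0.29, midway between the Dusp1 probe sets, against -0.02 for all. The members had been proposed with results of these arrays known, so these counts describe them and do not test them.

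**Figure D1:**
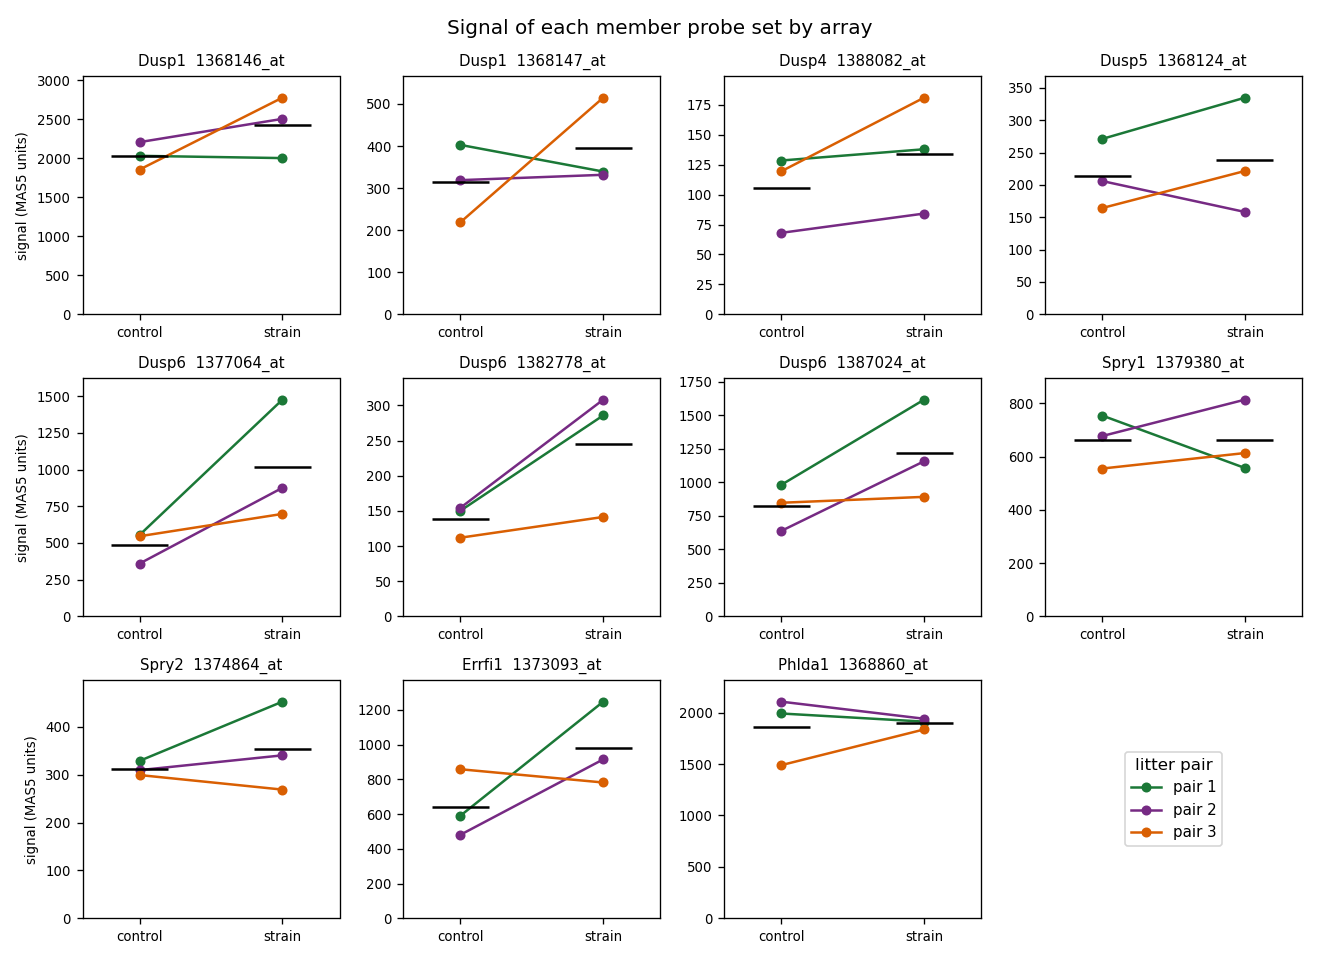
Signal of each of the 11 member probe sets (vertical axis, MAS5 units on a linear scale from 0) in control and strained cells. Points are single arrays, coloured lines join the samples of a litter pair and black bars are the means of 3 arrays; lines climb in all 3 pairs for the Dusp6 probe sets and for Dusp4, and in Errfi1 the pair 3 line falls.

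The phosphatases come first, beginning with Dusp6. On probe set 1377064_at the signal was 555, 360 and 546 in controls 1, 2 and 3 and 1477, 876 and 698 in the strained samples of the same pairs. Every strained array lay above every control array, an order seen in 2.86% of all tested probe sets, and strained sample 3 was the lowest of its group. The means were 487 ± 110 and 1017 ± 408 (SD, n = 3 each), and the log2 difference was 0.99 ± 0.19 (SE; 95% confidence interval 0.58 to 1.41; limma adjusted p = 0.0696). It stood at rank 37 of 9519 by p.

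On probe set 1387024_at, the brightest for Dusp6, the controls gave 982, 638 and 848 and the strained samples 1618, 1158 and 892. Here the groups overlapped, because strained sample 3 lay below control 1. The log2 difference was 0.54 ± 0.16 (SE; interval 0.20 to 0.89; limma adjusted p = 0.271).

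The dimmest Dusp6 probe set, 1382778_at, gave 150, 154 and 112 in controls and 286, 308 and 141 in strained samples. Strained sample 3 again lay among the controls, while the strained samples of pairs 1 and 2 were above all of them. The log2 difference was 0.70 ± 0.21 (SE; interval 0.24 to 1.15; limma adjusted p = 0.287), on a scale, log2(signal + 16), that understates changes at low signal. The probe sets differed in size but not in their order across pairs 1 and 2 against pair 3: the within-pair log2 differences were 0.71 to 1.39 in pairs 1 and 2 and 0.07 to 0.35 in pair 3. Higher values in all 3 pairs were found for 13.7% of all tested probe sets. They are 3 readings of the same RNA samples and not replicates.

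Dusp1, a nuclear phosphatase of p38, JNK and ERK that is itself an immediate early gene, differed most in the litter where Dusp6 differed least. Its bright probe set 1368146_at gave 2033, 2209 and 1857 in controls and 2004, 2507 and 2779 in strained samples. Strained samples 2 and 3 were above all controls and strained sample 1 lay among them, with a log2 difference of 0.25 ± 0.12 (SE; interval -0.03 to 0.52; limma adjusted p = 0.597). On the dimmer probe set 1368147_at the controls gave 403, 319 and 219 and the strained samples 339, 332 and 515.

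Only strained sample 3 stood above the controls on that probe set. Its ratio to control 3 was 2.35, against 0.843 in pair 1 and 1.04 in pair 2, and the log2 difference was 0.33 ± 0.24 (SE; interval -0.19 to 0.85; limma adjusted p = 0.738). Without pair 3 the mean difference of 1368147_at was -0.09 and that of 1368146_at was 0.08, so the higher mean of Dusp1 rests on pair 3.

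Dusp4, a nuclear phosphatase induced by ERK, gave 129, 68.1 and 120 in controls and 138, 84.2 and 181 in strained samples. Each strained sample was above its own control but the groups overlapped. Its mean of log2(signal + 16) was under the dim filter, so it was not tested, and its log2 difference was 0.29 ± 0.23 (SD over 3 pairs). Like Dusp1, it differed most in pair 3.

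Dusp5, a nuclear phosphatase specific for ERK, gave 271, 206 and 164 in controls and 335, 158 and 222 in strained samples. The strained sample was higher in pairs 1 and 3 and lower in pair 2, and the groups overlapped throughout. The log2 difference was 0.11 ± 0.20 (SE; interval -0.33 to 0.55; limma adjusted p = 0.912).

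**Figure D2:**
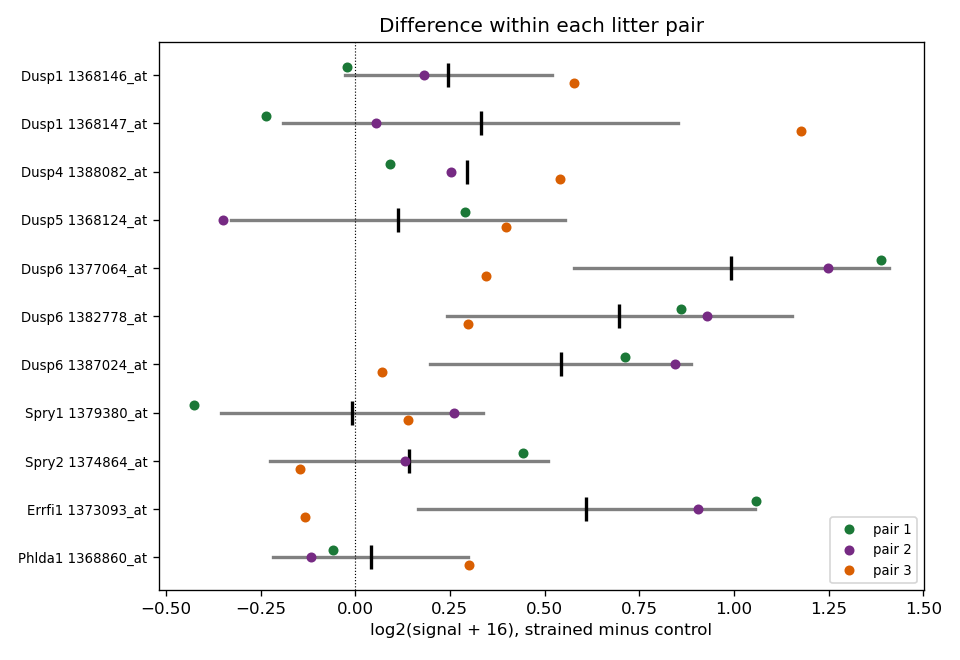
Strained minus control difference of log2(signal + 16) (horizontal axis) for each member probe set (vertical axis); points are the 3 litter pairs, ticks the mean and grey bars the 95% confidence interval from limma (none for Dusp4, which was not tested). Pair 3 is the lowest point of every Dusp6 probe set and of Errfi1, and the highest point of both Dusp1 probe sets and of Dusp4.

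Among the inhibitors that act upstream of RAF, Errfi1 gave 591, 481 and 858 in controls and 1247, 915 and 782 in strained samples. The strained samples of pairs 1 and 2 were the highest of the 6 arrays, and in pair 3 the control was above the strained sample. Group means were 643 ± 194 and 981 ± 240 (SD, n = 3 each), with a log2 difference of 0.61 ± 0.20 (SE; interval 0.17 to 1.06; limma adjusted p = 0.347).

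The sprouty genes differed little on average. Spry2 gave 329, 310 and 300 in controls and 453, 341 and 269 in strained samples, so the controls lay close together and the strained samples lay on either side of them. Its log2 difference was 0.14 ± 0.17 (SE; interval -0.23 to 0.51; limma adjusted p = 0.871).

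Spry1 gave 755, 678 and 555 in controls and 558, 814 and 614 in strained samples, lower than its control in pair 1 and higher in pairs 2 and 3. The log2 difference was -0.01 ± 0.16 (SE; interval -0.36 to 0.34; limma adjusted p = 0.995), with a sign that turned under quantile normalization and under centring on the median. Phlda1, a pleckstrin homology domain protein induced by growth factors, gave 1991, 2106 and 1489 in controls and 1912, 1940 and 1836 in strained samples. The strained values were close together within the range of the controls, and the log2 difference was 0.04 ± 0.12 (SE; interval -0.22 to 0.30; limma adjusted p = 0.956). As fold changes, the 95% intervals ran from 0.782 to 1.26 for Spry1, 0.855 to 1.43 for Spry2 and 0.861 to 1.23 for Phlda1, so changes within these bounds in either direction are not excluded by the 3 pairs.

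The members that were higher under strain were not the same in each litter, a difference that 1 pair per litter cannot test. With pair 3 left out, Dusp6 1377064_at and Errfi1 passed the threshold, at 1.32 and 0.98 (limma adjusted p = 0.0211 and 0.0283), and the other 2 Dusp6 probe sets were at 0.78 and 0.89 (adjusted p = 0.058 and 0.111). The arrays of pair 3 came from a chip lot of their own. With pair 1 left out, which leaves the 2 pairs run on the later day, the same probe set of Dusp6 was at 0.80 (limma adjusted p = 0.0764) and Errfi1 at 0.39 (adjusted p = 0.611). Without pair 2 they were at 0.87 and 0.46 (limma adjusted p = 0.12 and 0.983), and pair 1 alone, the earlier day, allows no test. In every pair control and strained array were processed on different fluidics modules, controls on 1, 1 and 3 and strained samples on 2, 2 and 4. Module and strain therefore cannot be told apart within pairs. With the module as a random block in place of the pair, Dusp6 1377064_at was at 1.00 (limma adjusted p = 1) and 0 of 9519 probe sets passed, with 212 at an unadjusted p of 0.05. That fit drops the pair term, and each module held arrays of 1 group only, so it cannot separate module from strain. The correlation estimated between arrays of a module was -0.022, and between arrays of a pair, as a random block, 0.548. With no block, 0 probe sets also passed in limma, with 200 at an unadjusted p of 0.05.

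The summed signals of the marker lists also varied between the litters. The summed signal of 10 leukocyte probe sets, from 9 of 10 listed genes, was 2821 to 3503 in controls and 2077 to 3693 in strained samples; its ratio of strained to control was 0.699, 0.746 and 1.05 in pairs 1, 2 and 3, with Ptprc dim throughout. The 9 smooth muscle and myofibroblast probe sets, from all 9 listed genes, summed to 21240 to 25560 in controls and 15670 to 23440 in strained samples, with ratios of 0.738, 0.917 and 0.910. The 4 erythroid probe sets, from 3 of 5 listed genes, had ratios of 0.807, 0.731 and 0.938. The 14 epithelial probe sets, from 13 of 14 listed genes, had ratios of 0.982 to 0.997, and the 11 fibroblast probe sets, from all 8 listed genes, 0.943 to 0.985. These sums are dominated by a few bright probe sets, such as Epcam, Krt8 and Cdh1 among the epithelial and Fn1 among the fibroblast ones. Tagln (mean signal 13360) and Acta2 (4537) were the brightest of the smooth muscle list, and Lyz2 (1066) of the leukocyte list. Taken singly, 4 of 11 tested epithelial probe sets had a positive log2 difference (median -0.11), as did 1 of 6 of fibroblasts (median -0.13), 0 of 8 of smooth muscle (median -0.40), 1 of 7 of leukocytes (median -0.29) and 1 of 2 erythroid ones. None of these marker probe sets was called in limma. Endothelial probe sets were all under the dim filter, with a summed signal of 148 to 316. The part of these markers in the differences of Dusp6 and Errfi1 was not tested, and in such bulk samples fewer cells of a type and less RNA per cell cannot be told apart. Whether the marker signals came from other cells or from the epithelial cells themselves was not tested.

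**Figure D3:**
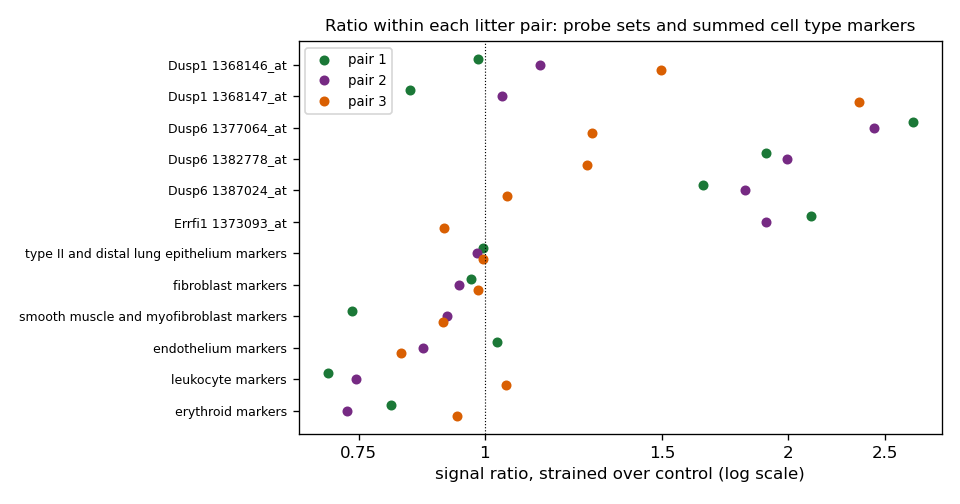
Ratio of strained to control signal (horizontal axis, log scale) in each litter pair for the Dusp1, Dusp6 and Errfi1 probe sets and for the summed signal of each cell type marker list (vertical axis). The epithelial ratios sit between 0.982 and 0.997 in all pairs, the leukocyte ratios are 0.699 and 0.746 in pairs 1 and 2 and 1.05 in pair 3, and the Dusp6 ratios of pair 3 are the lowest of their probe sets.

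The rest of the pathway was read from lists that leave the members out. In the ERK cascade itself, from receptor adaptors to ERK and its RSK and MNK substrates, none of 17 tested probe sets (14 genes) passed in either direction in limma, 1 was higher at an unadjusted p of 0.05, and the median log2 difference was 0.03. That one was the receptor gene Egfr, which went from 403 ± 89.9 to 508 ± 127 (SD, n = 3 each), a log2 difference of 0.32 ± 0.14 (SE, limma adjusted p = 0.517). The adaptor Grb2 was at -0.24 and -0.14 on its probe sets, the kinase gene Map2k1 (MEK1) at 0.13 and the exchange factor gene Sos2 at -0.15.

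Other phosphatases of MAP kinases had mean differences close to 0. Of 6 tested probe sets (5 of 14 listed genes) none passed in limma, adjusted or at an unadjusted p of 0.05. Their log2 differences ran from -0.12 for Dusp9 to 0.07 for Dusp14, with a median of -0.03. Dusp19 was at -0.10 and the probe sets of Dusp3 at -0.04 and 0.00. Single pairs went both ways: the dimmer Dusp3 probe set was at -0.56, 0.23 and 0.33 in pairs 1, 2 and 3. Whether they differ from Dusp6 was not tested.

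Other inhibitors of RAS and ERK signalling lay on both sides of 0. None of 14 tested probe sets (13 of 20 listed genes) passed in limma, and the median was -0.04. At an unadjusted p of 0.05, 2 were lower (4.9% of all tested probe sets were) and 0 higher. The mean difference was above 0 for 7 of the 14, beside 46.1% of all. In all 3 pairs, 3 were higher and 4 lower (13.7% and 16.5% of all were). The 4 genes with the smallest p, named here, had lower means. Ptpn6, the phosphatase SHP-1, was at -0.52 ± 0.19 (SE, limma adjusted p = 0.414). Socs3, an inhibitor of cytokine receptors, was at -0.49 ± 0.19 (SE, limma adjusted p = 0.444). These were the 2 at an unadjusted p of 0.05, both lower in all 3 pairs. The summed leukocyte markers above, whose part was not tested, were also lower in pairs 1 and 2. In pair 3 their ratio was 1.05, where Ptpn6 was at -0.21 and Socs3 at -0.30. Lrig1, which lowers EGF receptor levels, was at -0.26 and the ubiquitin ligase gene Cbl at -0.25 and -0.13 on its probe sets.

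Transcripts known to be induced by ERK were measured by 28 tested probe sets (20 of 25 listed genes). Fos, Fosb, Etv1, Etv4 and Etv5 were listed but had no tested probe set. None passed in limma. At an unadjusted p of 0.05, 5 were higher and 0 lower (4.55% and 4.9% of all tested probe sets were). In all 3 pairs, 8 were higher (13.7% of all tested probe sets were) and 2 lower (16.5% of all). The mean difference was above 0 for 16 of the 28, beside 46.1% of all. Differences ran from -0.20 to 0.61, with a median of 0.09. The genes named next are the 4 with the smallest p, and their means were higher. Ier2, an immediate early gene, was at 0.57, 0.40 and 0.61 in the 3 pairs, so pair 3 did not stand apart there as it did for Dusp6. The AP-1 gene Fosl1 was at 0.76, 0.70 and 0.37, and Klf6, which encodes a zinc finger factor, at 0.58, 0.70 and 0.06 on one probe set and 0.54, 0.72 and -0.21 on the other. The probe sets of Srf, the gene of serum response factor, did not match: the dimmer was at 0.23, 0.46 and 0.44 and the brighter at -0.06, 0.14 and 0.19 (limma adjusted p = 0.387 and 0.871).

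The p38 and JNK pathway, whose kinases Dusp1 also acts on, had 13 tested probe sets (11 of 18 listed genes). None of them passed in limma, adjusted or at an unadjusted p of 0.05, and their median was 0.09. The p38 substrate kinase gene Mapkapk2 was at 0.17, the scaffold gene Mapk8ip1 at 0.18 and 0.09 on its probe sets and the p38 gene Mapk14 at 0.21. Mapk14 was higher in pairs 1 and 2 (0.31 and 0.54) and lower in pair 3 (-0.23). Map3k1, an upstream kinase, was at -0.19 and -0.23 on its probe sets. The first was lower in all 3 pairs, while the second was at 0.16, 0.30 and -1.17 in pairs 1, 2 and 3.

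**Figure D4:**
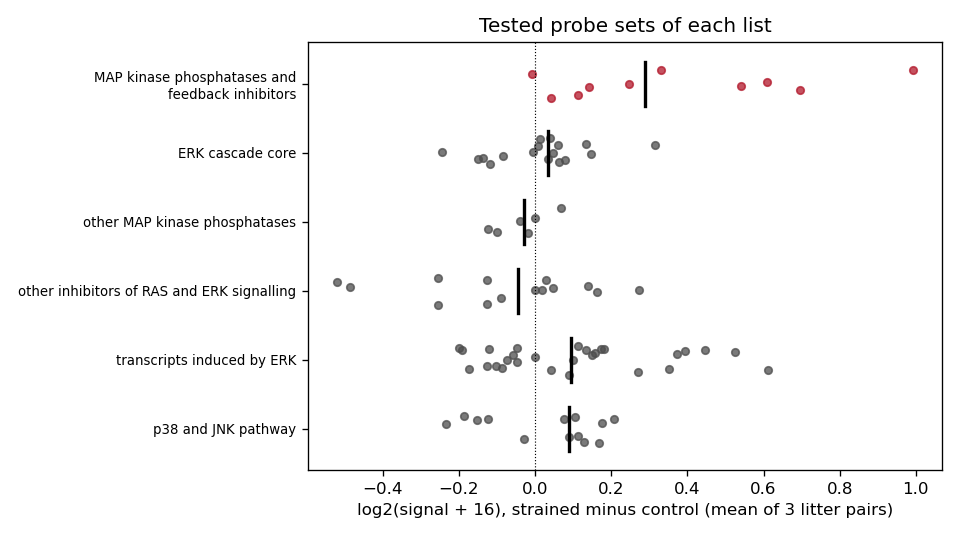
Mean log2 difference, strained minus control (horizontal axis), of every tested probe set of the members (red) and of the other pathway lists (grey); black bars are medians. The Dusp6 probe sets and Errfi1 are the 4 rightmost points of the members, the members' median of 0.29 lies between the probe sets of Dusp1, and the medians of the other lists lie between -0.04 and 0.09.

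The probe sets whose pattern was most like that of the brightest Dusp6 probe set were found by the correlation of the 6 array values after each pair's mean was taken away, which leaves 3 independent values. The closest 5 with a single symbol were Klf6, Syngr2, Tle5, Mal2 and Gnb1, at correlations of 0.9996 and above, and with log2 differences of 0.45, 0.14, 0.11, 0.25 and 0.16. With so few values close matches are common, since 308 of 9516 probe sets, 3.24%, were above 0.95. The other Dusp6 probe sets were at 0.984 and 0.985 and Errfi1 was at 0.974.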

How the data were processed

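Total RNA of 6 cultures, 3 control and 3 strained, was labelled with biotin and hybridised to 1 array each, per the labels' protocols. The deposited values are a linear signal intensity per probe set made with MAS5 5.0, per the submitters' processing notes, and the authors had scaled every array to nearly the same trimmed mean (500.13 to 500.15 with 2% trimmed at each end). Detection calls and probe values were not used here. The labels' protocols name a column cleanup of the RNA, whereas per the file headers of the array runs no such column was used. These headers also gave the run day, chip lot and fluidics module.

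Each array was rescaled so that its trimmed mean was 500, and signals were transformed as log2(signal + 16). The 57 control probe sets and the 40% of the others with the lowest mean log2 value were left out, which kept 9519 of 15866. The model in limma 3.58.1 (R 4.3.3) had terms for the litter pair and for the group and let the variance follow intensity, with p-values adjusted by Benjamini and Hochberg's method across the 9519 tested probe sets. Of its 11 degrees of freedom 9 were borrowed from other probe sets. Pairing follows the series' design text, where every pair has a different litter. Deviations from group means of same-numbered arrays correlated at 0.51, 0.47 and 0.44, and those of other combinations at -0.35 to -0.12. Such deviations cancel out within a group, so positive values for same-numbered arrays push the other combinations down. Same-numbered arrays also shared a run day and a chip lot, so litter and batch cannot be told apart in these correlations. The scripts were tested on simulated data.

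Symbols came from the platform annotation, matched by gene ID to RefSeq. Of 15866 probe sets 12783 had 1 symbol, 312 several and 2771 none; 12748 gene IDs were found and no symbol changed. Promoters are RefSeq's on GRCr8. The members, lists and tests were chosen with earlier results of these data known. All member probe sets were to be named, and, of each pathway list, up to 4 genes with the smallest p. Alternatives changed the offset, filter, scaling, variance prior, block, left-out pairs or arrays and the promoter window. The fluidics module as a block was added after seeing the data.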

Additional observations from a re-analysis of the deposited data

How the results depend on the processing

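With 12 other settings on all arrays, no member passed the threshold. Of these, 8 cannot change a mean difference in this balanced design; under the 4 that can (the offsets and scalings), each tested member probe set except Spry1 had a positive difference. The adjusted p of Dusp6 1377064_at ran from 0.0535 to 1. The number of arrays and the unknown signal over background limit every value. The count of all calls was 5 with no filter, 1 without the variance trend, 0 with no replicate block (200 at an unadjusted p of 0.05), 17 with the pair as a random block, 1 with run day as the block and 0 with the fluidics module as a random block (chosen after seeing the data), against 31 with the replicate block. Without the block Dusp6 1377064_at kept its difference of 0.99, with an adjusted p of 1. Leaving out a pair gave 18 to 52 calls in all and 0 to 2 among members. The log2 differences then ran from -0.091 to 0.62 for Dusp1 1368147_at, -0.03 to 0.34 for Dusp5, 0.80 to 1.32 for Dusp6 1377064_at, 0.39 to 0.98 for Errfi1, -0.088 to 0.12 for Phlda1, -0.14 to 0.20 for Spry1 and -0.008 to 0.29 for Spry2; the cause was not tested. With no block and an array left out, 0 probe sets were called in each case. Dusp5 was then at -0.05 without control 3 and -0.15 without strained sample 1, Phlda1 at -0.11 without control 3 and Spry2 at -0.043 without strained sample 1. Spry1 was at 0.089 and 0.012 without controls 1 and 2 and at 0.103 and 0.035 without strained samples 1 and 3, and Dusp4 at 0.05 without control 2 and 0.56 without strained sample 2. With all arrays, Spry1 was at 0.002 after quantile normalization and 0.025 after median centring. In the window from 100 bases before to 50 after the start, 0 of the searched members held the cyclic AMP response element. Dusp6 1382778_at, Dusp5 and Dusp4 were too dim to be tested with the lowest 60% dropped.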
